A study of Mus musculus with 5 samples.

Results

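Granulosa cells that were in G2 or in mitosis were picked out of 5 single-cell RNA libraries of C57BL6/J mouse ovaries, 1 library for each of the ages 2, 3, 4, 5 and 6 weeks (wk). A cell counted as a member when it had at least 1000 detected genes and under 15% of its UMIs (unique molecular identifiers, each standing for 1 captured RNA molecule) from mitochondrial genes, at least 1 UMI of at least 4 of the 6 genes Ube2c, Ccnb1, Plk1, Hmmr, Aspm and Cenpf, at least 5 UMIs of the granulosa gene Inha, and 0 UMIs of the stromal gene Dcn and the smooth muscle gene Tagln. The members were thus selected on their own counts of these 9 genes. This rule found 1606 members among 48163 cells, or 3.33%. The mice were untreated, each library held cells of whole ovaries that had been freed with trypsin and sorted by flow cytometry for cells that excluded a dead-cell stain, and the number of mice behind a library is not given in the sources used here.

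Granulosa cells surround the oocyte, and a follicle grows mainly because they divide. A cell that has copied its DNA enters G2, builds up cyclin B and the kinase Cdk1, and then passes through mitosis, in which the chromosomes condense, attach to the spindle through their kinetochores and are pulled apart once the anaphase promoting complex marks securin and cyclin B for destruction. RNAs of this machinery are made mainly in G2 and mitosis, so that they mark cells in these phases whatever the cell type. Follicle stages differ in the products of their granulosa cells. Preantral cells are known for anti-Müllerian hormone, antral mural cells for activin subunits and aromatase, and the cumulus cells around the oocyte for amino acid transport.

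Of the 39967 cells that passed the limits on genes and mitochondrial share, 3325 had 4 of the 6 rule genes and 2441 of these also had 5 UMIs of Inha. Of those 2441 cells, 835 (34.2%) were lost because they held Dcn or Tagln, from 23.4% at 5 wk to 46.1% at 2 wk. The members numbered 173, 248, 539, 275 and 371 at 2, 3, 4, 5 and 6 wk. Their median depth in these libraries was 26493, 23106, 21146, 30516 and 28663 UMIs, against 12528 over all libraries for marker-negative granulosa cells (none of the rule genes and at most 1 of 6 S phase genes). Detection of a gene rises with depth, so the shares of cells with a stage marker below were taken from cells thinned to 10000 UMIs. All 6 rule genes were found in 891 members, 5 in 422 and 4 in 293. Just outside the rule, 370 cells of the granulosa gate had 3 of the 6, and the median sum of the rule genes was 6 UMIs there against 12 in members with 4 and 58 in members with 6. Scrublet, which looks for droplets with more than 1 cell, called 34 members (2.12%), 26 of them in the 4 wk library. No barcode was a member in more than 1 library, although 273 barcodes occurred in more than 1 library.

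The granulosa gate is the set of 12590 cells that met every part of the rule apart from the 6 rule genes. Members made up 8.65% of the gate at 2 wk (95% exact binomial interval 7.45 to 9.97), 9.70% at 3 wk (8.58 to 10.9), 16.0% at 4 wk (14.7 to 17.2), 13.3% at 5 wk (11.9 to 14.9) and 14.3% at 6 wk (13.0 to 15.7). After thinning to 10000 UMIs, which leaves out cells with fewer, the shares were 7.22%, 9.56%, 17.4%, 12.1% and 12.8%. The gate then held 2732 cells at 4 wk in place of 3378, but 2092 at 2 wk in place of 2000. The effect of this unequal loss on the shares was not tested. The 4 wk library was the highest and the 2 wk library the lowest both ways. At 5000 UMIs per cell the 4, 5 and 6 wk shares were closer, at 9.33%, 8.40% and 8.09%, with overlapping intervals. At that depth the 3 wk share (4.78%) was below the 2 wk share (5.17%), and so it was with at least 5 of the 6 rule genes (7.24% and 7.35%). The intervals cover counting error only, since there is 1 library per age, and no test between ages was made. The 2, 3 and 4 wk matrices came from another version of the counting software than the 5 and 6 wk matrices, so that age and software cannot be told apart between these 2 sets. Of the marker-negative granulosa cells at 5 wk, 19.8% carried at least 2 theca cell genes, against 1.59% or less at the other ages, and without cells that carried at least 2 theca or immune genes the 5 wk share was 15.1%.

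**Figure D1:**
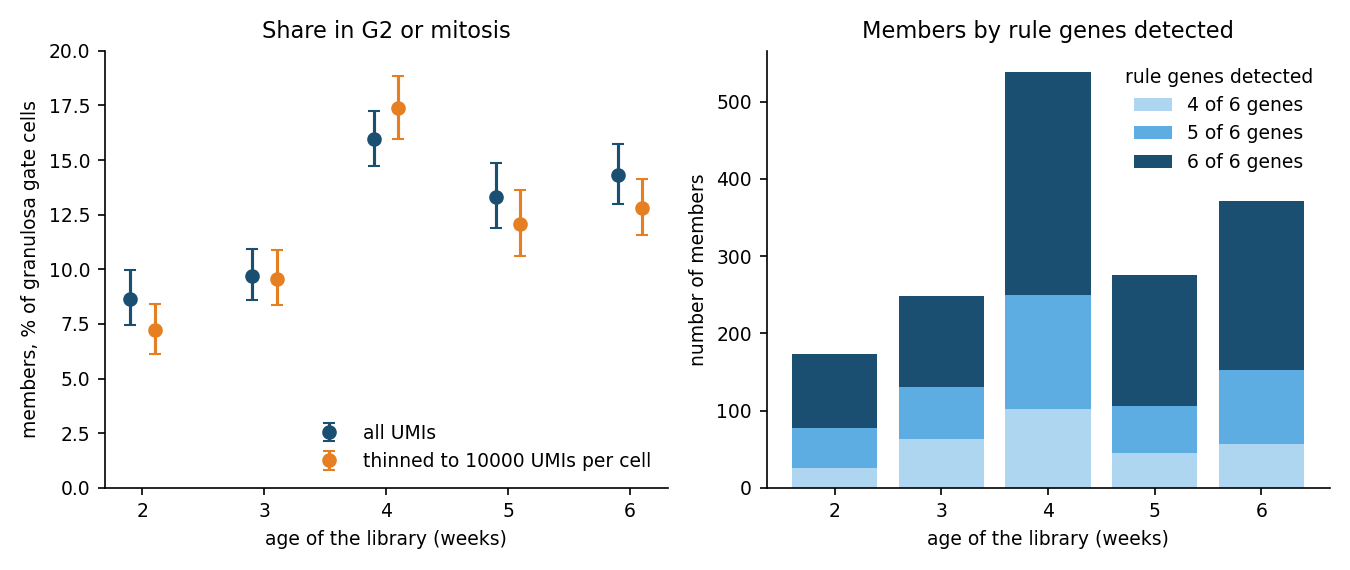
Share of granulosa gate cells that were in G2 or mitosis in each library (left, percent, with 95% exact binomial intervals, from all UMIs and from cells thinned to 10000 UMIs) and number of members with 4, 5 or 6 of the rule genes (right). From all UMIs the share is 8.65% at 2 wk and highest at 4 wk (16.0%), and members with 6 of 6 genes are the largest group in each library.

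The 6 rule genes were found at much the same level in the members of each library. Their values chose the members and are given as a description. The unit of levels, CPM, is the number of UMIs that a gene has per 1000000 UMIs of all cells of a class in a library, and since each UMI comes from the 3′ end of an RNA they do not grow with the length of the gene. Ube2c, the ubiquitin-conjugating enzyme of the anaphase promoting complex, stood at 661, 506, 632, 813 and 743 CPM at 2, 3, 4, 5 and 6 wk. Cenpf, a kinetochore protein, stood at 557, 478, 522, 510 and 515 CPM. Ccnb1, which codes for cyclin B1, had 180, 183, 211, 193 and 195 CPM. Hmmr and Aspm, both spindle proteins, averaged 179 ± 19.0 and 121 ± 15.4 CPM (SD, n = 5 libraries). Plk1, a mitotic kinase, averaged 104 ± 11.4 CPM, and with 78.7% at full depth it was found in the fewest members, while Cenpf was found in 99.4%. Inha, the alpha subunit of inhibin, had a median of 118 UMIs per member, and 8 members were close to its limit with 5 to 9 UMIs.

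The promoters of all 6 rule genes hold 2 short sequences known from genes that are switched on in G2 and mitosis. They are the cell cycle homology region (CHR, here TTTGAA or TTTAAA), which is read by the DREAM and MuvB complexes, and the CCAAT box, which is read by NF-Y. Both strands were searched in the 300 bases from 250 before to 50 after each start site of RefSeq (assembly GRCm38.p6). A CHR occurred in 80.9% and a CCAAT box in 76.6% of the 47 genes with a promoter among 54 genes of a standard G2/M score list, and both occurred in 66.0%. The shares were 29.0%, 71.0% and 22.6% for 31 genes of the S phase list, and 30.6%, 41.1% and 13.4% for all 27025 genes. An E2F site (TTTCCCGC or TTTGGCGC) occurred in 4.26% of the G2/M genes, 32.3% of the S phase genes and 1.80% of all genes. Matches that overlap were each counted. A match is a description of the sequence and was not tested for binding. Of the promoters printed here, that of Ccnb1 has the plainest arrangement of both motifs, Ube2c has the most CCAAT boxes among the rule genes, and Hmmr has its CHR after the start site. Capitals mark each CHR or CCAAT box in either direction.
Ccnb1, chr13:100786437-100786736, minus strand: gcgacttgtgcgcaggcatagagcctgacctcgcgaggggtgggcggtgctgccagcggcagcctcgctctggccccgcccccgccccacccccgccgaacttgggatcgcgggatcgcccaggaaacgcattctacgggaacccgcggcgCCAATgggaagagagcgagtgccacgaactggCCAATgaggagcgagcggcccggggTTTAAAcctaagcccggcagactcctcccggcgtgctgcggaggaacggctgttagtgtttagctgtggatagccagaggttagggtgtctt
Ube2c, chr2:164769679-164769978, plus strand: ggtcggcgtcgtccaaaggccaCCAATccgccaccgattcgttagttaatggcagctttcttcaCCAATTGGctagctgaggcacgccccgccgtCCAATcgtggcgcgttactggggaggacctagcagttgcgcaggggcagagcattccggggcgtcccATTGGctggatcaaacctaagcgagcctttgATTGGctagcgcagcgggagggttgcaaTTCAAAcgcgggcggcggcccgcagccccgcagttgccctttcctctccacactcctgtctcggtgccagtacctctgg
Hmmr, chr11:40733388-40733687, minus strand: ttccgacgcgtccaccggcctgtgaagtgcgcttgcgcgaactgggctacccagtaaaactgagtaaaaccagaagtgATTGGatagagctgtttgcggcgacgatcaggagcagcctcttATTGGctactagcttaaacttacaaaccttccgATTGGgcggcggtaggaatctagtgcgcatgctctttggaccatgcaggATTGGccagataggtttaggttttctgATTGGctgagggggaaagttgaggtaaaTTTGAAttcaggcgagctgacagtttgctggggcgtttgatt
The CHR of Ccnb1 begins 42 bases before the start and its CCAAT boxes begin 99 and 67 bases before it. In Ube2c the CHR begins 29 bases before the start, and 6 CCAAT boxes begin between 228 and 57 bases before it, a pair of which overlaps on opposite strands. Hmmr has 5 CCAAT boxes, and its CHR begins 8 bases after the start. Plk1 has 3 CHR matches and 1 CCAAT box, Cenpf has 2 of each, and Aspm has 3 of each.

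The rest of the mitotic machinery, which the rule did not name, was found with the rule genes. These genes rise and fall with the cycle and therefore with the choice of members, so their levels are given without a test. Of the cyclins and their kinase, Ccnb2 averaged 213 CPM in members, 28.2 in S phase granulosa cells and 2.70 in granulosa cells with none of the rule genes and at most 1 of 6 S phase genes (called marker-negative below, 5134 cells). Ccna2, cyclin A2, averaged 149, 13.1 and 0.805 CPM in the same 3 classes, and Cdk1 averaged 300, 46.5 and 8.99 CPM. Among the kinases, Aurka, Aurkb, Bub1 and Ttk averaged 92.0, 103, 105 and 43.8 CPM in members and at most 1.64 CPM in marker-negative cells. Of the kinetochore genes, Cenpa and Cenpe stood at 261 and 246 CPM against 4.61 and 3.41 CPM. Among the spindle genes, Prc1 was at 410 CPM and Tpx2 at 306 CPM, against 5.85 and 1.74 CPM. Top2a, which untangles DNA, and Mki67, which coats mitotic chromosomes, reached 985 and 490 CPM against 9.08 and 2.60 CPM. Each of these genes was found in the members of all 5 libraries.

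In 1388 members kept after thinning to 10000 UMIs, Ccna2, whose protein is lost early in mitosis, and Cdc20, which activates the anaphase promoting complex, were both found in 64.2%, Ccna2 alone in 12.6% and Cdc20 alone in 18.5%. Ccna2 was found in 77.6% of members with Cdc20 and 72.9% of those without, so that no separate points of mitosis are read from this pair. At least 4 of the 6 S phase genes Mcm3, Mcm5, Mcm6, Hells, Uhrf1 and Gins2 were found in 76.7% of members at full depth, a share that falls with thinning. RNAs of the replication machinery differed in how they stood between S phase and G2/M. Over the 43 genes of the standard S phase list, the median log2 fold change of members against S phase cells was 0.15. The range was -1.83 to 2.08. Ung, which removes uracil from DNA, averaged 96.0 CPM in S phase cells and 28.8 CPM in members, and E2f1 averaged 50.3 and 28.6 CPM. Rrm2, a subunit of ribonucleotide reductase, went the other way with 49.6 and 128 CPM, and so did Foxm1, a transcription factor of mitotic genes, with 3.32 and 33.8 CPM.

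**Figure D2:**
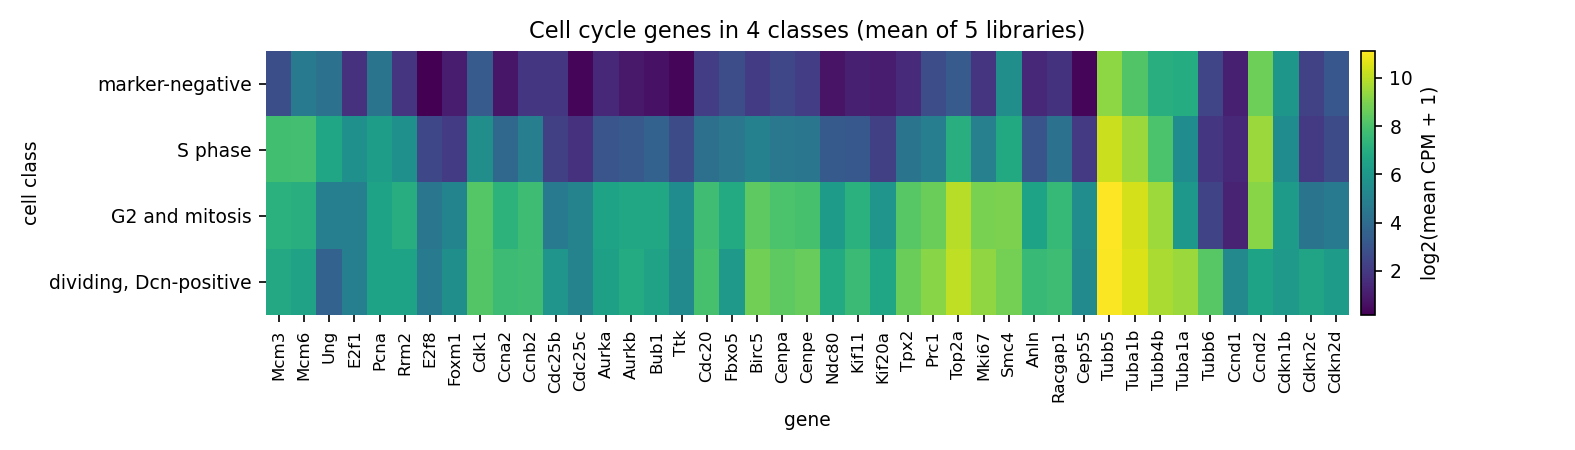
Mean level of cell cycle genes over the 5 libraries in marker-negative, S phase and G2/M granulosa cells and in dividing Dcn-positive cells, as log2(CPM + 1) (color scale). Mitotic genes from Cdk1 to Cep55 are bright in both dividing classes and dark in marker-negative cells. Tubb6 and Ccnd1 are brighter in the dividing Dcn-positive cells than in the 3 granulosa classes. Ccnd2 is brighter in the granulosa classes, though it is also found in the Dcn-positive cells.

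Inhibitors of the G1 kinases were also found in members. These genes code for proteins that hold back Cdk4, Cdk6 or Cdk2, and they were listed with the cell cycle genes, so that against other granulosa cells they too are given without a test. Cdkn2c, p18, stood at 25.8, 6.52, 7.97, 25.5 and 33.0 CPM at 2, 3, 4, 5 and 6 wk, with a mean of 3.09 CPM in S phase cells. The 3 and 4 wk libraries were low and the others high. In marker-negative cells it stood at 16.3 CPM at 5 wk and at 1.98 CPM or less at the other ages. Cdkn2d, p19, stood at 24.7, 17.7, 20.5, 28.5 and 36.9 CPM, against means of 7.89 CPM in marker-negative and 5.55 CPM in S phase cells. Cdkn1b, p27, which is also used as a marker of resting granulosa cells in primordial follicles, averaged 72.4 ± 8.45 CPM in members, 61.6 ± 6.77 CPM in marker-negative cells and 44.1 ± 7.97 CPM in S phase cells (SD, n = 5 libraries). After thinning it was found in 51.4% of members, 40.7% of marker-negative cells and 32.0% of S phase cells, but also in 49.5% of 111 immune cells, so it marks no single cell type here. Of the D cyclins, Ccnd2 was by far the most abundant in members with 575 ± 106 CPM, and Ccnd1 and Ccnd3 averaged 1.30 and 16.8 CPM.

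The members carried granulosa markers. After thinning, Fst, which codes for the activin binding protein follistatin, was found in 92.0% of members (95% exact interval 90.4 to 93.4). It was found in 3.60% of 111 immune cells (0.99 to 8.97), which serve as a rough background of free RNA. These cells were chosen with under 5 UMIs of Inha, which by itself favours little granulosa RNA, and without a limit on Dcn or Tagln. At full depth the stromal list summed to 403 to 1079 CPM in the immune cells of a library. They are thus not a matched background for granulosa or stromal genes. Amhr2, the receptor of anti-Müllerian hormone, was found in 81.8% of members and 6.31% of immune cells. Median depth before thinning was 24719 UMIs in members and 7733.5 UMIs in immune cells. The 111 thinned immune cells were 10, 10, 20, 35 and 36 at 2, 3, 4, 5 and 6 wk. Their shares are taken over all libraries together, so no background of a single library was measured. Most genes of other cell types were low. The 6 stromal genes together reached 8.20 to 37.7 CPM in the members of a library against 3499 to 4939 CPM in dividing Dcn-positive cells, and their most abundant gene in members was Col1a2. The 5 immune genes together reached 0.22 to 12.2 CPM, and the 5 germ cell genes 1.08 to 2.63 CPM. The smooth muscle list reached at most 23.0 CPM, mostly Acta2, and the endothelial list 4.11 to 39.2 CPM, highest at 5 wk. The surface epithelium list reached 66.1 to 108 CPM, of which 69.7% was the keratin Krt8. The theca list reached 24.0 to 196 CPM, of which 78.2% was Mgarp. The steroid enzyme gene Cyp17a1, which defines theca cells, had 478 UMIs over all members, and 5 cells held 90.6% of them. No gene of these lists was at 0 over all members. The part of other cells or of free RNA in the results below was not tested beyond these values.

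The next question was which follicle stages the dividing cells came from. For this, members were compared with marker-negative granulosa cells of the same library, by edgeR's quasi-likelihood test on UMI sums per class and library, with the library as a block and Benjamini-Hochberg adjustment over all 12461 genes tested. The rule genes and cell cycle lists were left out of what is read from it. Of all genes tested, 25.1% were higher in members and 28.4% lower (adjusted p under 0.05), with a median log2 fold change of -0.05, so that a call by itself says little and lists are read by direction and size. Members differ from the other class in depth as well as in the genes used to pick them, and the p-values measure the spread of the class difference over 5 libraries of different ages. Without the library block, 1851 genes were higher and 1547 lower, in place of 3127 and 3544.

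Cumulus genes and 4 of the 7 antral genes were higher in the dividing cells. All 4 genes of the cumulus list were higher (median log2 fold change 1.01). Slc38a5 (chrX:8271133-8280179, plus strand, GRCm38), a transporter of glutamine and other neutral amino acids, stood at 14.1, 133, 316, 407 and 332 CPM in the members at 2, 3, 4, 5 and 6 wk, and at 5.97, 12.2, 99.3, 113 and 126 CPM in marker-negative cells. Members were above marker-negative cells in each library, while the ranges of the classes overlapped because the 2 wk values were low in both. The fitted difference was 3.83-fold (log2 1.94 ± 0.27 SE, adjusted p = 0.000359 in edgeR). Npr2, the receptor of C-type natriuretic peptide, rose 2.21-fold (log2 1.14 ± 0.15, adjusted p = 0.0003), and Slc38a3, another glutamine transporter, 1.59-fold (adjusted p = 0.00382). Amh, anti-Müllerian hormone, which is on the preantral list as well, stood at 636, 809, 768, 489 and 332 CPM in members, and was 1.84-fold higher than in marker-negative cells (log2 0.88 ± 0.20, adjusted p = 0.00556). At 3 wk its levels were close, with 809 and 783 CPM, and from 4 wk on they were apart.

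Of the 7 antral genes, 4 were higher, 1 was lower and 2 did not pass the test. Inhbb (chr1:119415465-119422248, minus strand), the beta B subunit of inhibins and activins, had the largest difference, with 286, 860, 318, 347 and 668 CPM in members at 2, 3, 4, 5 and 6 wk and 185, 112, 34.7, 94.2 and 191 CPM in marker-negative cells. No member value fell within the range of the marker-negative values (log2 2.11 ± 0.33, adjusted p = 0.000671). Inhba, the beta A subunit, stood at 94.4, 548, 149, 584 and 1296 CPM in members and at 71.6, 84.9, 41.5, 429 and 1094 CPM in marker-negative cells. It rose in each library, by 2.17-fold in the fit (adjusted p = 0.0225), and without the 4 wk library its adjusted p was 0.087. Fst rose 2.01-fold (adjusted p = 0.000149) and Nap1l5, a gene expressed from the paternal allele, 2.77-fold (adjusted p = 0.00129). Tdrd5 was lower in members of each library (log2 -0.73 ± 0.11, adjusted p = 0.000649). Nppc, the ligand of Npr2 and a product of mural cells, did not pass (log2 0.04 ± 0.21, adjusted p = 0.885).

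Of the 6 genes of the estrogenic list, 3 were higher, 1 was lower and 2 did not pass the test. Cyp19a1 (chr9:54165937-54268110, minus strand), aromatase, stood at 21.2, 20.4, 3.60, 27.4 and 50.3 CPM in members and at 9.43, 2.07, 0.496, 11.2 and 15.9 CPM in marker-negative cells. The 4 wk library was the lowest in both classes and the 6 wk library the highest (log2 1.81 ± 0.27, adjusted p = 0.000513). Hsd17b1, which makes estradiol from estrone, rose 2.18-fold (adjusted p = 0.00097), and Fshr, the receptor of follicle stimulating hormone, 1.66-fold (adjusted p = 0.0169) with 467 UMIs in all members. Fshr was lower in members at 2 wk (7.14 against 8.06 CPM) and higher at the other ages, and without the 5 wk library its adjusted p was 0.0511. Of the rest of this list, Hsd3b1 (log2 -0.40 ± 0.26, adjusted p = 0.216) and Lhcgr (log2 -1.31, adjusted p = 0.0763) did not pass the test, and Cyp11a1 was lower (log2 -1.86 ± 0.52, adjusted p = 0.0138). Cyp11a1 had 1618 CPM in the marker-negative cells of the 5 wk library, where theca genes were frequent, and at most 44.4 CPM in those of the others. Without cells that carried theca or immune genes its adjusted p was 0.214.

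Most preantral genes were lower in the dividing cells. Of the 6 genes of that list, 4 were lower, 1, Amh, was higher, and 1, Kctd14, did not pass the test. Igfbp5 (chr1:72857932-72874884, minus strand), a binding protein of insulin-like growth factors, stood at 409, 67.7, 13.3, 60.0 and 52.8 CPM in members and at 1038, 456, 80.9, 124 and 180 CPM in marker-negative cells. Members were lower in each library, by 3.60-fold in the fit (log2 -1.85 ± 0.23, adjusted p = 0.000196). Col18a1, a basement membrane collagen, was 2.29-fold lower (adjusted p = 0.00145), Gatm, an enzyme of creatine synthesis, 2.44-fold (adjusted p = 0.000495), and Wt1, a transcription factor, 1.61-fold (adjusted p = 0.0121, and 0.0513 without the 4 wk library). After thinning, Gatm was found in 23.5% of members, 35.9% of marker-negative cells and 50.5% of immune cells, so a UMI of Gatm does not mark a cell as preantral. Kctd14 had a log2 fold change of -0.33 ± 0.16 (adjusted p = 0.103, and 0.0365 without the 5 wk library). Of the 5 markers of primordial follicles, Cdkn1b, also a cell cycle gene, is given above by its levels alone. Gng13 did not pass (log2 -0.65 ± 0.31, adjusted p = 0.107), and Rspo1, a WNT enhancer, was 4.50-fold lower (log2 -2.17 ± 0.24, adjusted p = 9.58e-05) with 41 UMIs over all members, while Lgr5 and Krt19 were too low to be tested. After thinning, Rspo1 was found in 0.937% of members, under the 2.70% that 0 of 111 immune cells allows, so the size of its fold is not read.

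Of the 12 genes of the remodeling or atretic list, 9 were lower in members, none was higher, and the median log2 fold change was -1.70. The list holds genes of tissue remodeling and of follicles that regress. It also summed to 1651 to 2126 CPM in dividing Dcn-positive cells. In the same comparison 3 of 6 stromal, 2 of 3 tested smooth muscle and 3 of 4 tested theca genes were lower, and none was higher. None of 5 endothelial genes was called. The part of other cell types in the fall of the remodeling list was not tested. Cald1 (chr6:34598500-34775473, plus strand), an actin binding protein, stood at 20.1, 11.1, 80.3, 63.4 and 38.6 CPM in members and at 61.9, 58.7, 573, 336 and 327 CPM in marker-negative cells. Both classes were higher from 4 wk on, and members were lower in each library (log2 -2.52 ± 0.18, adjusted p = 4.41e-06). Ghr, the growth hormone receptor, was 4.76-fold lower (adjusted p = 6.36e-05), Bicc1, an RNA binding protein, 4.68-fold (adjusted p = 0.000859), and Pik3ip1, which restrains PI3-kinase, 3.54-fold (adjusted p = 3.15e-07). Adamts5, a protease of the extracellular matrix, was 2.92-fold lower (adjusted p = 0.00734), and did not pass without the 4 wk library (adjusted p = 0.0665), without the 6 wk library (0.0650) or in DESeq2 (0.188). Nupr1, Agt and S100a6 did not pass the test, although Nupr1 did after thinning to 10000 UMIs (log2 -0.37, adjusted p = 0.0333 in edgeR). Nupr1, a stress-induced chromatin protein, averaged 173 ± 118 CPM in members and 231 ± 189 CPM in marker-negative cells (SD, n = 5 libraries).

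**Figure D3:**
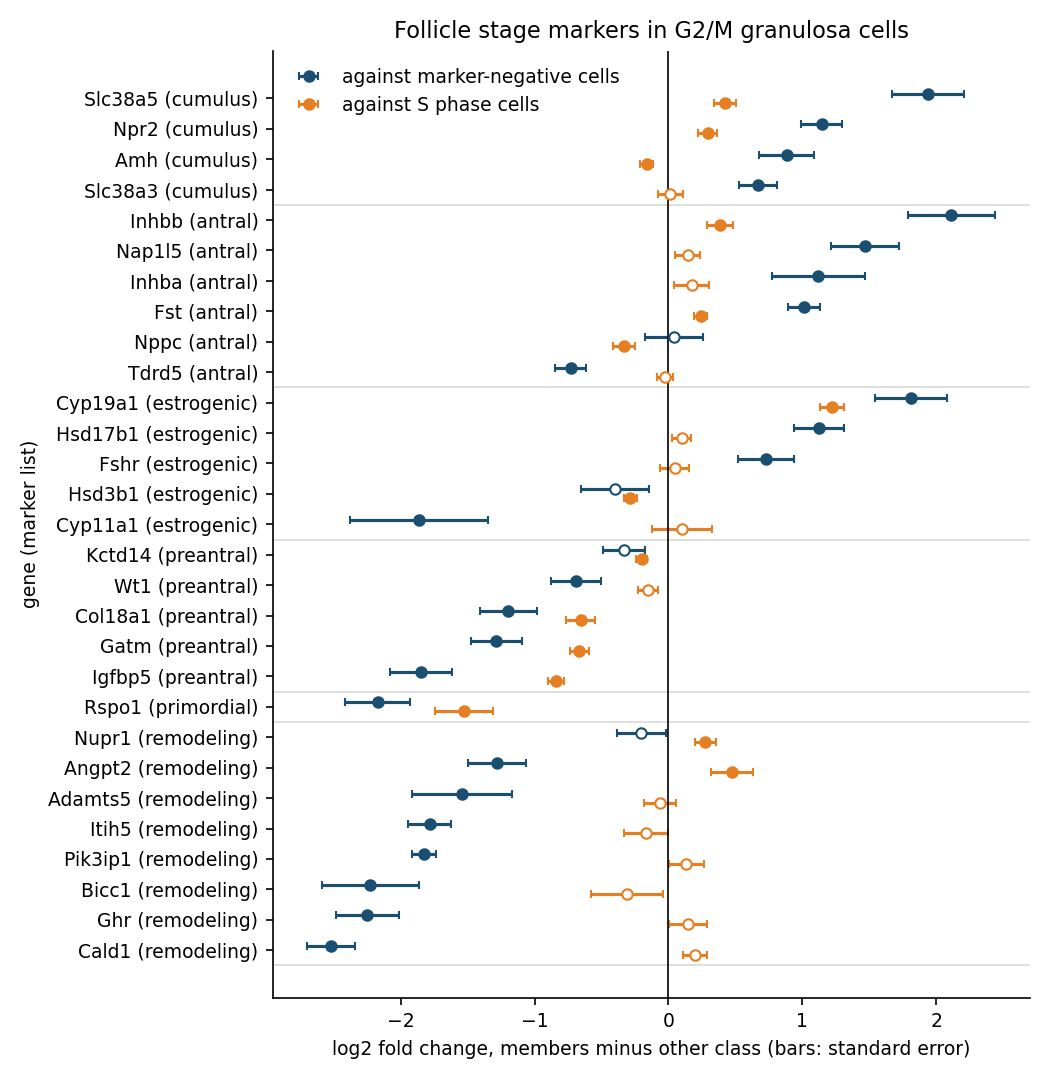
Log2 fold change (± SE) of follicle stage markers in G2/M granulosa cells against marker-negative cells (blue) and against S phase cells (orange). Filled points passed an adjusted p of 0.05 in edgeR over 5 libraries. Against marker-negative cells, Slc38a5, Inhbb and Cyp19a1 stand furthest to the right of the genes plotted and Cald1 furthest to the left (Pamr1, not plotted, was at log2 -2.59), and against S phase cells Cyp19a1 stays to the right while Cald1 lies near 0.

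Of 11 follicular ligands, 6 were higher and 3 lower, against 25.1% and 28.4% of all genes tested. Ihh, which signals to theca cells, stood at 78.8, 133, 80.3, 87.3 and 132 CPM in members, 1.82-fold above marker-negative cells (adjusted p = 0.000213), and Igf1 was 1.60-fold higher (adjusted p = 0.00162). Bmp2, a bone morphogenetic protein, was 4.70-fold lower (log2 -2.23 ± 0.13, adjusted p = 1.27e-06), Kitl, the ligand that granulosa cells offer to the oocyte's KIT receptor, 1.91-fold (adjusted p = 0.000325), and Wnt4 2.04-fold (adjusted p = 0.000152). After thinning, Bmp2 was found in 10.7% of members and 21.9% of marker-negative cells. Immune cells had 18.9% (12.1 to 27.5), so neither share is read as above the background. Of 14 receptors, 3 were higher, Npr2 and Fshr among them, and 5 were lower, shares near those of all genes. Gja1, the connexin that joins granulosa cells, was 1.31-fold higher (adjusted p = 0.0108), whereas the integrin Itga6, a laminin receptor, was 2.65-fold lower (adjusted p = 0.000161). Of 10 immediate early and heat shock genes, 7 were lower. The immediate early gene Junb was 2.22-fold lower (adjusted p = 0.000117), and the chaperone Hsph1 alone was higher (1.37-fold, adjusted p = 0.000646).

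Outside all lists of cell cycle genes, the 10 largest rises with at least 200 UMIs were Kif18b, Esco2, Depdc1a, Hist1h2af, Troap, Mxd3, Pbk, Iqgap3, Neil3 and Kif14. Most of them are known in dividing cells: Kif18b and Kif14 are mitotic motors, Esco2 joins sister chromatids, and Pbk is a mitotic kinase. Esco2 had 142, 129, 95.8, 99.7 and 130 CPM in members and at most 0.75 CPM in the marker-negative cells of any library. The 10 largest falls were Cyp17a1, Fam129a, Scg5, Gm15866, Cnrip1, Enpp2, Aldh1a2, Tgfb2, Tmem150a and Tbx3. Of these, Cyp17a1, Fam129a, Enpp2, Aldh1a2 and Tbx3 were at their highest in the 5 wk marker-negative cells, and without cells that carried theca or immune genes the log2 fold changes of Cyp17a1, Fam129a and Tbx3 were -0.86, -1.90 and -1.10. The growth factor gene Tgfb2 was lower with them (log2 -2.68 ± 0.27, adjusted p = 5.27e-05) and without them (log2 -2.67). Tmem150a, a membrane protein gene, had 1.73, 1.20, 1.63, 2.46 and 1.84 CPM in members and 13.1, 11.8, 8.79, 12.8 and 12.5 CPM in marker-negative cells, with no overlap (log2 -2.67 ± 0.16, adjusted p = 1.15e-06).

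Stage markers and cell division can also be set side by side within the gate, without any comparison of levels. For each stage marker, the share of gate cells that were members was taken among cells with and cells without a UMI of it, after thinning each cell to 10000 UMIs and applying the rule again, so that 1388 cells were members. Of 33 markers with enough cells in each library, 11 had a higher share among cells with the marker in all 5 libraries and 8 a lower share. Cdkn1b, a cell cycle gene, is among the 11. So is Nppc (2.67 ± 2.56 points, SD), whose level was not called against marker-negative cells. At 5000 UMIs per cell the counts were also 11 and 8, of 32 markers, but Rspo1 and Bicc1 were no longer among the lower and Gatm and Vpreb3 were. Of cells with Cyp19a1, 18.7%, 30.4%, 33.3%, 24.3% and 24.2% were in G2 or mitosis at 2, 3, 4, 5 and 6 wk, against 6.50%, 8.40%, 17.1%, 11.1% and 11.2% of cells without it. The mean difference was 15.3 ± 4.02 percentage points (SD, n = 5 libraries), the widest of the 33, and 8.59 points at 5000 UMIs per cell. The 4 wk value rests on 42 cells with Cyp19a1, a share of cells not told from the background of immune cells, so that the order is read in the other 4 libraries. Slc38a5 came next with 18.7% against 7.63% on average (11.0 ± 3.02 points), then Fst (9.80 points, and 5.77 at 5000 UMIs), Inhbb (7.41 points) and Nap1l5 (7.17 points). Of the other cumulus genes Npr2 was among the 11, but Slc38a3 (lower at 2 and 3 wk) and Amh (lower at 3 wk) had no single direction. At the other end, cells with Rspo1 were members in 3.90% against 12.0% (1 to 4 members with Rspo1 per library). Rspo1 was found in 0.937% of members, under the 2.70% that 0 of 111 immune cells allows, and nothing is read from it here. Cells with Ghr were members in 6.18% against 13.2% and cells with Cald1 in 7.69% against 14.2%. For Ghr, Cald1, Bicc1 and Itih5 the share of members with a UMI was not above that of immune cells (8.50% against 9.91% for Ghr, 20.5% against 40.5% for Cald1, 2.02% against 23.4% for Bicc1 and 32.8% against 34.2% for Itih5). How much of these UMIs was free RNA was not tested, and a UMI of these 4 genes does not mark a cell as one of a stage. Of cells with Igfbp5, 6.30%, 6.27%, 13.5%, 8.99% and 7.75% were members at 2, 3, 4, 5 and 6 wk, against 13.5%, 13.8%, 17.9%, 13.0% and 14.8% of cells without it. With 5 libraries the exact two-sided sign-flip permutation test cannot go below p = 0.062, which each of these 19 markers reached, and over the 33 markers the adjusted value was 0.109.

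**Figure D4:**
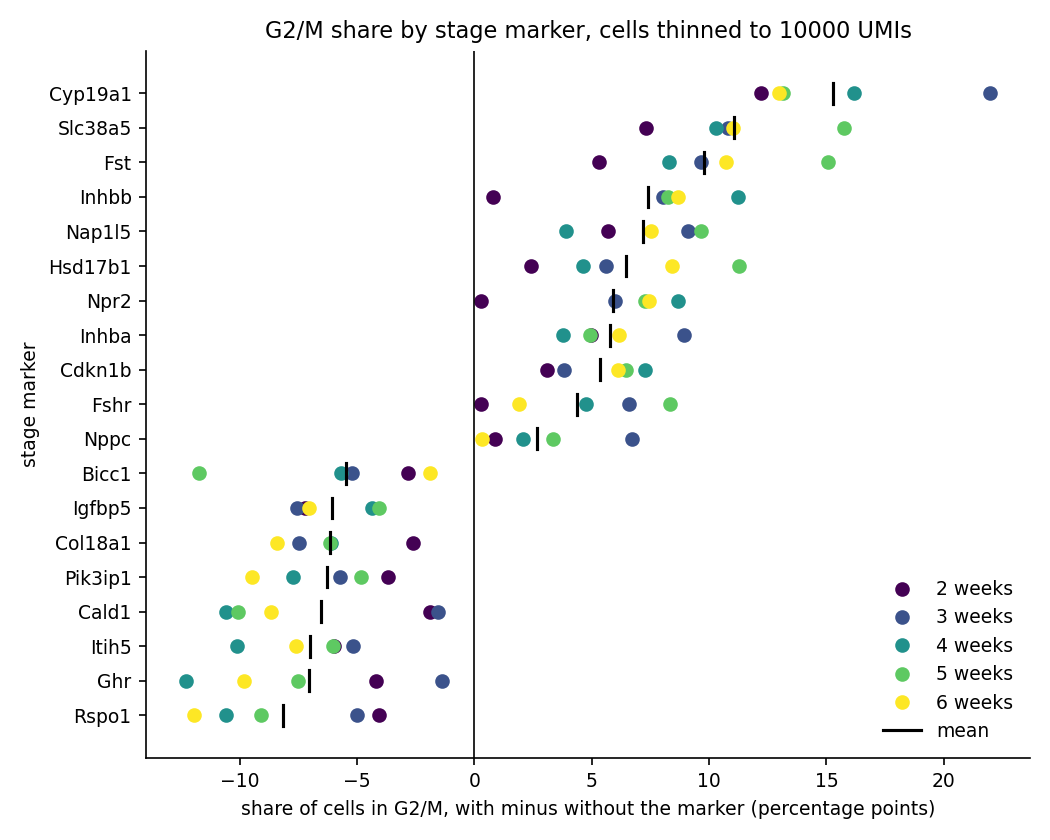
Difference in the share of cells in G2 or mitosis between granulosa gate cells with and without a UMI of a stage marker (percentage points), for the 19 markers with the same direction in all 5 libraries, after thinning to 10000 UMIs. Points are libraries, colored by age, and the bar is their mean. Cyp19a1 lies furthest to the right (mean 15.3 points) and Rspo1 furthest to the left.

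Pairs of stage markers were also counted within members. After thinning, Slc38a5 was found in 60.7% of members (95% exact interval 58.0 to 63.2), Igfbp5 in 23.9% (21.7 to 26.3), and both in 7.49%. In immune cells, the background, the shares were 3.60% and 9.91%. Slc38a5 was found in 31.3% of members with Igfbp5 and in 69.9% of members without it. The same order held at 3, 5 and 6 wk. At 3 wk Slc38a5 was found in 28.0% of 75 members with Igfbp5 and 54.7% of 128 without, at 5 wk in 47.5% of 40 and 82.0% of 183, and at 6 wk in 55.2% of 58 and 72.3% of 278. At 2 wk, where Slc38a5 was rare, the shares were 11.3% of 115 and 16.7% of 36, and at 4 wk, where Igfbp5 was no more frequent than in immune cells, 43.2% of 44 and 72.2% of 431. With Wnt4 in place of Igfbp5, Slc38a5 was found in 31.8% of members with Wnt4 and 59.4% of those without at 3 wk, in 49.2% and 77.3% at 4 wk and in 54.4% and 73.9% at 6 wk, with the same order at 5 wk, but in 12.5% and 13.0% at 2 wk. Inhba was found in 21.4% of members with Igfbp5 and 44.9% of those without, with the same order at 3, 5 and 6 wk. At 2 wk Inhba and at 4 wk Igfbp5 were no more frequent than in the immune cells of all libraries together. Pairs with Cyp19a1 were counted over all libraries only, which differ in the shares of these genes, so no split is read from them. Slc38a5 was found in 69.9% of members with Cyp19a1 and 59.3% of those without. Over all libraries, Igfbp5 was found in 22.4% of members with Cyp19a1 and 24.1% of those without. A missing UMI in a thinned cell does not show that the RNA was absent. These shares are descriptions over cells of 5 libraries that differ in age.

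The shares of these markers in the members differed between the ages. Igfbp5 was found in 76.2% of thinned members at 2 wk, 36.9% at 3 wk, 9.26% at 4 wk, 17.9% at 5 wk and 17.3% at 6 wk. The 4 wk share was no higher than the 9.91% of the immune cells of all libraries together (5.05 to 17.0) and is not read as above background. Col18a1 went from 76.8% at 2 wk to 9.82% at 6 wk, with 2.70% in immune cells. Slc38a5 rose from 12.6% at 2 wk to 44.8% at 3 wk and was at 69.5%, 75.8% and 69.3% afterwards. Inhba was found in 9.93%, 40.9%, 33.1%, 38.6% and 60.7% of members. Immune cells of all libraries together had 10.8%, so that its 2 wk share is not read as above background. Cyp19a1 was found in 15.2%, 16.7%, 2.95%, 14.8% and 23.5%, with 0 of 111 immune cells, which allows a share of up to 2.70% (95% exact interval 0 to 3.27), so that the 4 wk share is not read as above the background. The 4 wk library was the low point also in S phase and marker-negative cells, with 2.18 and 0.496 CPM. Amh went from 89.4% at 2 wk to 52.7% at 6 wk. As lists, the 6 preantral genes summed to 3032, 1612, 1302, 1221 and 1051 CPM in members at 2, 3, 4, 5 and 6 wk, and the 7 antral genes to 836, 2351, 1578, 2318 and 3771 CPM. The preantral sum was thus highest at 2 wk and the antral sum highest at 6 wk, as they also were in marker-negative cells (4477 CPM at 2 wk and 2719 CPM at 6 wk) and in S phase cells (3690 and 3237 CPM).

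In levels, the genes with the highest 6 wk over 2 wk ratio in members (at least 200 UMIs over both, and no mitochondrial or ribosomal protein gene) were Bmp2, Grem1, Agt, Slc38a5 and Fam183b. Slc38a5 was 23.6-fold higher at 6 wk than at 2 wk (95% counting interval 18.5 to 30.6), and 21.2-fold higher in marker-negative cells. Bmp2 had 2 UMIs at 2 wk and 218 at 6 wk (ratio 44.2, interval 12.1 to 367). After thinning it was found in 1.32% of members at 2 wk and 10.4% at 6 wk, not above the 18.9% of immune cells (12.1 to 27.5). Grem1, a BMP antagonist, had 0.649, 2.40, 0.771, 6.91 and 22.5 CPM at 2, 3, 4, 5 and 6 wk, from 89 members with a UMI, 5 of which held 27.3% of its UMIs, and Agt, angiotensinogen, 1.52, 9.60, 62.6, 72.5 and 48.3 CPM. The lowest ratios were those of Gstm6, Cxcl10, Zdbf2, Col18a1 and Mdk, and 5 members held 36.7% of the Cxcl10 UMIs. Gstm6, a glutathione transferase, went from 81.2 CPM at 2 wk to 9.26, 3.77, 5.86 and 4.04 CPM. Col18a1 went from 280 to 20.5 CPM, 13.6-fold (11.9 to 15.7), while in marker-negative cells the ratio was 4.66 (4.35 to 4.99). Mdk, the growth factor midkine, went from 99.4 to 7.72 CPM, 12.9-fold (10.2 to 16.4) in members and 6.64-fold (5.76 to 7.68) in marker-negative cells. These genes were ranked by this ratio, each age is a single library, and no test was made.

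**Figure D5:**
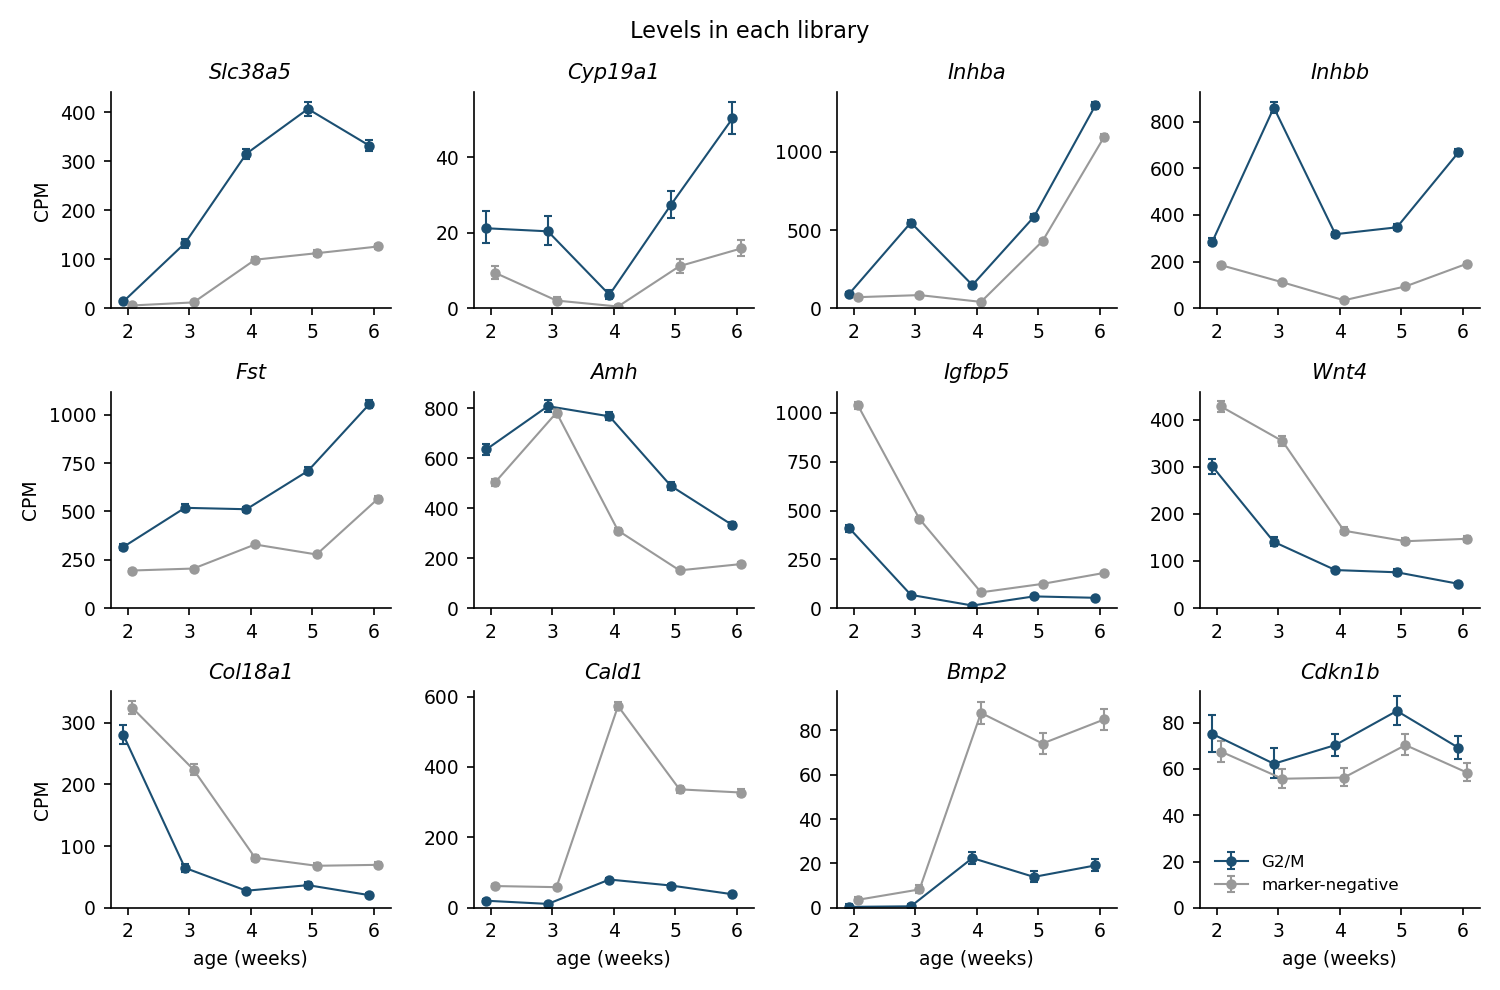
Level (CPM, with 95% Poisson intervals) of 12 genes in G2/M members (blue) and marker-negative granulosa cells (grey) of each library. Slc38a5, Cyp19a1 and Inhbb are above marker-negative cells at each age, Igfbp5, Wnt4, Col18a1, Cald1 and Bmp2 are below them at each age, and Igfbp5 and Col18a1 are highest at 2 wk.

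Against S phase granulosa cells (2352 cells, at least 4 of the 6 S phase genes and under 4 rule genes), most stage markers had smaller differences. Of 12020 genes tested, 15.3% were higher in members and 16.7% lower. Cyp19a1 stood at 8.65, 8.16, 2.18, 12.6 and 20.1 CPM in S phase cells, below the members of the same library at each age (log2 1.22 ± 0.09, adjusted p = 1.15e-07). Slc38a5 was 1.34-fold higher in members (adjusted p = 0.00134), Inhbb 1.31-fold (adjusted p = 0.00779), Npr2 1.22-fold (adjusted p = 0.00658) and Fst 1.18-fold (adjusted p = 0.00185). Of the 7 antral genes 2 were higher, 4 did not pass and 1, Nppc, was lower (log2 -0.33, adjusted p = 0.00763, but 0.140 after thinning and 0.0677 without the 5 wk library). Of the 4 cumulus genes 2 were higher, 1 did not pass and 1, Amh, was lower (log2 -0.16, adjusted p = 0.0156, but 0.0819 without the 4 wk and 0.0674 without the 6 wk library). Of the 6 preantral genes, 5 were lower. Igfbp5 was 1.79-fold lower (log2 -0.84 ± 0.06, adjusted p = 1.1e-07), Gatm 1.59-fold (adjusted p = 4.46e-06) and Col18a1 1.57-fold (adjusted p = 0.000444). Wnt4 was 1.42-fold lower (adjusted p = 0.00565). Rspo1 was 2.89-fold lower (adjusted p = 0.000106), but with 0.937% of thinned members it was at the background, and nothing is read from it. Hsd3b1 was 1.22-fold lower in members (adjusted p = 0.000814). Of 11 tested genes of the remodeling list, 2 were higher, Nupr1 (log2 0.28, adjusted p = 0.0178) and Angpt2 (log2 0.48, adjusted p = 0.0321), and none was lower. Neither call held in each repeat of the test with a library left out: Nupr1 had an adjusted p of 0.105 without the 6 wk library and Angpt2 of 0.160. Cald1 averaged 42.7 CPM in members and 36.5 CPM in S phase cells. In DESeq2 the differences of Inhbb and Wnt4 did not pass (adjusted p = 0.101 and 0.0661), nor did that of Npr2 after thinning (0.0918).

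Beyond the cell cycle lists, the largest rises against S phase cells were Pif1, Arhgef39, Depdc1a, Kif14 and Depdc1b. Pif1, a DNA helicase, had 8.66, 8.40, 9.51, 10.2 and 9.21 CPM in members and 1 UMI in all S phase cells together. The largest falls were Cd74, H2-Eb1, H2-Ab1, Tmem150a and Gpr27. The first 3 are antigen presentation genes of immune cells, and 5 of the 2352 S phase cells held 95.9% of the Cd74 UMIs, 84.2% of H2-Eb1 and 86.8% of H2-Ab1. Tmem150a was 4.12-fold lower (log2 -2.04 ± 0.18, adjusted p = 1.3e-06), with 4.17 to 9.42 CPM in S phase cells and no overlap. Gpr27, an orphan receptor, was 3.53-fold lower (adjusted p = 3.97e-06).

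Dividing cells of another lineage stood in the same libraries. These were 623 cells with at least 4 of the 6 rule genes, at least 5 UMIs of Dcn and under 5 of Inha. Here 29.5% of 11491 genes were higher in the granulosa members and 28.9% lower. Both classes were chosen by the same rule genes, so that mitotic genes are given without a test, and Cdk1 averaged 300 CPM in members and 293 CPM in the Dcn-positive cells. Cdk1 does not stand for all of them. Over the 54 genes of the G2/M score list, the median log2 fold change of members against Dcn-positive cells was -0.29, with a range of -1.40 to 0.54. The D cyclins differed between the classes. Ccnd1 stood at 46.3, 53.5, 32.2, 39.7 and 21.6 CPM in dividing Dcn-positive cells and at 0, 0.343, 0.428, 2.93 and 2.81 CPM in members (log2 -4.72 ± 0.54, adjusted p = 8.27e-05). Ccnd2 went the other way, with 456, 584, 641, 482 and 709 CPM in members and 86.8 to 103 CPM in the Dcn-positive cells (log2 2.55 ± 0.13, adjusted p = 7.34e-07). Neither gene overlapped between the classes.

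Of 7 tubulins, 5 were lower in members and 2 did not pass the test. Tubb5, Tuba1b and Tubb4b, the abundant tubulins of both classes, averaged 2237, 1383 and 742 CPM in members and 2157, 1488 and 851 CPM in the Dcn-positive cells. Tubb6, a class V beta tubulin, stood at 2.38, 2.57, 4.62, 7.26 and 4.65 CPM in members and at 318, 347, 353, 275 and 243 CPM in the Dcn-positive cells (log2 -6.15 ± 0.25, adjusted p = 1.69e-07). Tuba1a was 12.6-fold lower in members (adjusted p = 3.94e-06) and Tubb2a 3.03-fold (adjusted p = 5.01e-05). Tubb6 averaged 4.30 CPM in members and 4.52 CPM in marker-negative granulosa cells. Cdkn2c and Cdkn2d were lower in the granulosa members than in the Dcn-positive cells, at 19.8 against 93.6 CPM and 25.6 against 74.5 CPM (adjusted p = 3.54e-06 and 5.77e-06).

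The genes that set granulosa members apart most from dividing Dcn-positive cells, beyond the cell cycle lists, were Cyp19a1, Slc38a3, Sgpp2, Dynap and Ihh on the high side. Cyp19a1 had 1066 UMIs in members and 0 in the Dcn-positive cells, and against a floor of 3 UMIs over all these cells it was at least 127-fold higher. Ihh had 4325 and 4 UMIs. On the low side stood Enpep, Col1a2, Plac8, Hhip and Cacna1s. Col1a2, a chain of type I collagen, averaged 7.49 CPM in members and 2367 CPM in the Dcn-positive cells (log2 -8.48 ± 0.31, adjusted p = 1e-07), and Hhip, which binds hedgehog ligands, 0.50 and 144 CPM (adjusted p = 5.62e-08). Since Dcn and Inha chose the classes, a gap in genes of the same lineages comes with the choice. Foxl2, a transcription factor of granulosa cells, was 1.80-fold higher in members (adjusted p = 0.00201), and the cadherin Cdh2 17.9-fold (adjusted p = 3.64e-07).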

How the data were processed

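Per the labels, ovaries were dissociated with trypsin, live cells were sorted, and libraries were made with 10x Genomics 3′ v3.1 reagents. The authors made the count matrices with Cell Ranger (3.1.0 at 2, 3 and 4 wk, 6.0.1 at 5 and 6 wk, per the file headers, on mm10) and named Seurat 4.1.0. The deposited matrices are raw counts of UMIs, with totals of 93438618 to 144609431 per library. Members, S phase, marker-negative and dividing Dcn-positive cells were gated on these counts and summed per library. The sums were tested with edgeR 4.0.16 (TMM, quasi-likelihood, library block) in R 4.3.3, with DESeq2 1.42.0 as an alternative. Scrublet was run in scanpy 1.11.5 with an expected rate of 8%. In simulated data with 2-fold changes, edgeR recovered 83.4%, 83.8% and 75.7% of changed genes in the comparisons with marker-negative, S phase and Dcn-positive cells, with 2, 6 and 9 false calls among 12666, 12075 and 11556 genes. Only 199, 197 and 189 tested genes were changed there, with the same gene means in all libraries and a fixed dispersion. The real libraries differ in age and have far more called genes, so these values do not give the error rate of the tests.

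The members, lists and tests were chosen with earlier results of these data known. Named genes are the rule genes, examples of the lists, and the 10 (marker-negative comparison) or 5 (others) largest called changes in each direction with at least 200 UMIs and 1 direction in all 5 libraries, plus the 5 highest and 5 lowest 6 wk over 2 wk ratios. For shares of cells, cells with at least 10000 UMIs were thinned to 10000 and the rule was applied again. Thinning leaves out shallower cells (2732 gate cells at 4 wk in place of 3378). It also admits cells whose last Dcn or Tagln UMI was lost (2092 gate cells at 2 wk in place of 2000). Stage markers needed at least 20 cells with and without a UMI in each library. Intervals are 95% and cover counting error only. A count of 0 allows up to 3. Each age is 1 library, so p-values measure the spread of class differences over ages, and no p was computed between ages.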

Additional observations from a re-analysis of the deposited data

Results flagged for a closer look

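Some genes moved in opposite directions between members and marker-negative granulosa cells in different libraries, each beyond its 95% counting interval. These differences between ages were not tested, since each age is 1 library. Nppc was 2.01-fold higher in members at 3 wk (1.61 to 2.50) and at a ratio of 0.56 (0.52 to 0.60) at 6 wk. Hsd3b1 had a ratio of 1.13 (1.08 to 1.18) at 3 wk and 0.28 (0.27 to 0.29) at 5 wk, where 19.8% of marker-negative cells carried at least 2 theca genes. Without cells that carried theca or immune genes, Hsd3b1 over all libraries was at log2 -0.04 (adjusted p = 0.741 in edgeR) in place of -0.40. Kctd14 had a ratio of 1.12 (1.07 to 1.16) at 5 wk and 0.46 (0.44 to 0.47) at 3 wk. Adamts5 had a ratio of 2.33 (1.29 to 4.21) at 3 wk, from 4.63 and 1.99 CPM, and 0.19 (0.16 to 0.23) at 4 wk. Nupr1 had a ratio of 1.49 (1.23 to 1.79) at 2 wk and 0.55 (0.52 to 0.58) at 6 wk. The transcription factor genes Foxl2 and Nr5a2 had ratios of 1.11 (1.03 to 1.19) and 1.09 (1.04 to 1.15) at 5 wk, against 0.61 (0.56 to 0.67) at 3 wk and 0.69 (0.64 to 0.73) at 2 wk. Without cells that carried theca or immune genes, Foxl2, Nr5a2 and Kctd14 were lower in members over all libraries, with log2 fold changes of -0.29, -0.30 and -0.40 (adjusted p = 0.0085, 0.00503 and 0.0287 in edgeR).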

How the results depend on the processing

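Without the library block, 1851 genes were higher and 1547 lower than in marker-negative cells (3127 and 3544 with it), and 502 and 147 than in S phase cells (1837 and 2006 with it). DESeq2 gave 1138 and 1029 genes against S phase cells. Thinning to 10000 UMIs gave 1991 and 2155 genes against Dcn-positive cells (3395 and 3323 without). The cause was not tested. Leaving out each library in turn gave 2626 to 3217 higher and 2834 to 3339 lower genes against marker-negative cells, 1386 to 1788 and 1431 to 1668 against S phase cells, and 2872 to 3258 and 2924 to 3257 against Dcn-positive cells. With 5 or more of the 6 rule genes, which by construction admits fewer cells, the share of gate cells was 10.4% in all (12.8% by the rule) and 7.35%, 7.24%, 12.9%, 11.1% and 12.1% at 2, 3, 4, 5 and 6 wk. Thinning gave 12.2% in all, 7.22% at 2 wk, 17.4% at 4 wk and 12.8% at 6 wk, and leaving out cells with theca or immune genes, an alternative chosen after seeing the data, gave 15.1% at 5 wk. Of the 111 gene differences followed, Nppc against marker-negative cells, which was not called, turned negative without the block (log2 -0.26), without cells with theca or immune genes (-0.058), and without the 3 wk (-0.17) or the 4 wk library (-0.02), and lay between -0.17 and 0.31 over the libraries left out. The mean share difference of Rspo1 turned with thinning to 5000 UMIs (0.098 points, SD 11.3), although 4 of 5 libraries stayed lower; at 5 wk it rested on 2 members among 7 cells with Rspo1. Of 1305 values for these genes under alternatives, 1217 kept direction and side of the threshold, 75 lost it and 9 gained it, 52 of these without the block. The library block pairs the classes within each library. Low genes such as Pamr1, Rspo1 and Lox rest on 30 to 100 UMIs in all members, which limits their precision.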
